A study of Mus musculus with 16 samples.

Results

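Regions of H3K27me3 that were no wider than 2 kb in hematopoietic stem cells (HSCs) of young mice, and that overlapped an H3K27me3 region in HSCs of 20-month-old mice, numbered 6093 of the 63143 regions in the young list. They were chosen by 3 values of the lists themselves: a position on chromosomes 1 to 19, a width of at most 2000 bp, and an overlap of at least 1 bp with the 20-month list. On those chromosomes the young list held 50640 regions, of which 47901 were narrow, and 12.7% of these narrow regions were kept at 20 months. The 20-month list was shorter, with 15926 regions there. The other 41808 narrow regions met no 20-month region and are called lost below, and 2371 regions wider than 2 kb were kept. These last groups serve below as the comparison. Lost means only absent from the 20-month list, and how far the shorter length of that list accounts for this was not tested.

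The HSCs came from the bone marrow of female C57BL/6 mice at 10 weeks (young) or 20 months (aged). They were sorted for CD150+, CD34-, CD48- and Flt3- cells within the Lin-, IL-7Rα-, c-kit+ and Sca-1+ fraction. The labels name no genetic change or treatment for either age. H3K27me3, H2AK119ub1 and H3K4me3 were each measured by chromatin immunoprecipitation with sequencing (ChIP-seq) in 2 libraries per age, and input chromatin likewise, which gives 16 libraries in 8 groups. The data used here are 6 lists of enriched regions, 1 for each mark and age, deposited as pooled. Each list therefore stands for 1 measurement of its age, no spread between mice or libraries could be given, and the ages were not compared by a test. The 95% intervals below (Wilson for shares, order statistics for medians) treat regions as units and cover counting error only. Neighbouring regions are not independent, and regions are not replicates of an age. As a check of the cell type, 7 of 10 HSC marker genes had H3K4me3 at a promoter in the young list and 7 of 10 in the 20-month list, against 0 of 4 T cell, 0 of 3 B cell and 0 of 4 granulocyte genes at either age. The macrophage gene Cd14 had H3K4me3 in the young list alone.

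H3K27me3 is written by Polycomb repressive complex 2 and H2AK119ub1 by Polycomb repressive complex 1, and both mark genes that are kept silent, many of them regulators of other tissues. H3K4me3 marks the start sites of active genes, and its presence together with H3K27me3 is known as a bivalent state. In mammals, Polycomb complexes are recruited to CpG islands, stretches of DNA that are dense in unmethylated CG dinucleotides and often contain start sites.

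The sequences at the centres of 6 strong members are shown so that their CG content can be read against their position. All are 300 bases of the plus strand of build GRCm38 (mm10), and capitals mark CG dinucleotides. The first 3 are the highest-ranked promoter members with H2AK119ub1 at both ages, leaving out windows over a UTR and a chromosome that is not shown here. They lie in an intron of Fam241b, a gene of unassigned function (chr10:62135800-62136099), in an intron of Kirrel3, a cell adhesion molecule of neurons (chr9:34487626-34487925), and in intergenic DNA beside Adgrb1, an adhesion receptor that takes part in the uptake of apoptotic cells (chr15:74515230-74515529).
Fam241b: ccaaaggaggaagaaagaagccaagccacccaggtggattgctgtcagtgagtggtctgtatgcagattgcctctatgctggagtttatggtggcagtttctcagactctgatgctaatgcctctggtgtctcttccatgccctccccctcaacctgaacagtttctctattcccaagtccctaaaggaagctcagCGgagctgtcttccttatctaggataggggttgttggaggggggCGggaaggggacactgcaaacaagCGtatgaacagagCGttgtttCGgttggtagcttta
Kirrel3: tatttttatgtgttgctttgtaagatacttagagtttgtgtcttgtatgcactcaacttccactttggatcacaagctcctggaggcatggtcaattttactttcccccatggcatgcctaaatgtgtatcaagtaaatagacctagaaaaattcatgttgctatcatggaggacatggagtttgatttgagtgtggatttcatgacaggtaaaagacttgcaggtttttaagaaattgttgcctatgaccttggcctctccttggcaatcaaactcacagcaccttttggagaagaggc
Adgrb1: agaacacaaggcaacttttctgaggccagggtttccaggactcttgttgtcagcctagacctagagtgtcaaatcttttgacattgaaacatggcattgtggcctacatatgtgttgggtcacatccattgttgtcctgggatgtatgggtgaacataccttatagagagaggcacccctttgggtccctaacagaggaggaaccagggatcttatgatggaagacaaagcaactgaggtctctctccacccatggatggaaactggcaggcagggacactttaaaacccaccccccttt

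The other 3 are the highest-ranked members at least 10 kb from any protein-coding start site, under the same conditions. They lie in an intron of Crtac1, an extracellular matrix protein gene (chr19:42411389-42411688), in an intergenic region nearest to Fcgr1, which encodes an Fc receptor of myeloid cells (chr3:96341224-96341523), and in an intron of Myo18b, an unconventional myosin gene of muscle (chr5:112747030-112747329).
Crtac1: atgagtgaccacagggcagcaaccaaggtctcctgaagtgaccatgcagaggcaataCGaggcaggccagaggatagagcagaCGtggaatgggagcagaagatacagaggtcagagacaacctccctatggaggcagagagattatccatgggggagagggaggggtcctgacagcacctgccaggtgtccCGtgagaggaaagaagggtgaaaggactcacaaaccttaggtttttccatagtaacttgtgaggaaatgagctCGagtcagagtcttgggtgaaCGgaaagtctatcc
Fcgr1: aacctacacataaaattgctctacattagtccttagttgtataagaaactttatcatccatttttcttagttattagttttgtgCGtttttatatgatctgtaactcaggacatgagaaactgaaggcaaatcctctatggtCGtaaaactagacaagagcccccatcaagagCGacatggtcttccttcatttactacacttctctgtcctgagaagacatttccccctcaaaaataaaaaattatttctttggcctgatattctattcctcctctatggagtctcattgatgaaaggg
Myo18b: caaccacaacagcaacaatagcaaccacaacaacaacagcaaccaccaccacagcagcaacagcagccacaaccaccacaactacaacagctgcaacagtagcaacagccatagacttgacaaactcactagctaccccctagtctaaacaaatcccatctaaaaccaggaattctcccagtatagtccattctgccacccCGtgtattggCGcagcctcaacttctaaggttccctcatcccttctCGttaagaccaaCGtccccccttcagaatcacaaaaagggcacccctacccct

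CG dinucleotides were sparse in all 6 windows. The promoter windows held 5 in Fam241b, 0 in Kirrel3 and 0 in Adgrb1, and the distal windows held 5 near Crtac1, 3 near Fcgr1 and 4 in Myo18b. These 6 do not stand for the order over all members. There the central 300 bases held a median of 5 CG at promoters and 3 at distal sites. Windows over a UTR, which were left out here, count in those medians. Low CG content was general among the members. The ratio of observed to expected CG over a whole region had a median of 0.229 (0.225 to 0.233). Only 166 of 6093 members (2.72%, 2.34 to 3.16) reached a ratio of 0.6 together with a GC content of 50%, the usual limits of a CpG island. Such whole-region values were also rare in lost narrow regions (1.55%, 1.44 to 1.68) and in wide kept regions (3.21%, 2.57 to 3.99). The median ratio of members was higher than that of 0.180 (0.178 to 0.181) in narrow regions that were not kept. It was below that of 0.338 (0.330 to 0.345) in wide kept regions. Within 501 to 1000 bp of width the medians were 0.218 in members (0.211 to 0.225) and 0.189 in lost narrow regions (0.187 to 0.191). The median GC content was 47.3% in members, 45.9% in narrow regions that were not kept and 48.6% in wide kept regions.

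Width separated kept from lost regions, as the rule allows. Members had a median width of 801 bp and covered 5.40 Mb in all, whereas narrow regions that were not kept had a median of 368 bp and covered 19.4 Mb. Of the narrow regions of 200 to 300 bp, 4.04% were kept (3.74 to 4.36), and of those of 1501 to 2000 bp, 56.8% (54.3 to 59.2). The share rose through the bins between, with 7.11%, 17.1% and 40.3%. A longer region has more bases at which it can meet another, and how far this accounts for the relation was not tested, so the CG ratio, the promoter share and the share with 20-month H2AK119ub1 were also compared within width bins. The young H2AK119ub1 share and the H3K4me3 shares were split so as well. At 1501 to 2000 bp, young H2AK119ub1 was on 10.4% of members (8.59 to 12.6) and 3.58% of lost regions (2.42 to 5.27). There H3K4me3 in the young list was on 5.90% (4.53 to 7.66) and 2.69% (1.71 to 4.21). Its shares at 20 months were 2.84% (1.93 to 4.16) and 1.64% (0.919 to 2.92), with overlapping intervals. Distances, neighbours and genes were not compared within bins. From 2.5-fold on, kept share rose with the fold enrichment of the young region over background as well, from 6.54% at 2.5 to 3-fold to 33.4% at 4-fold and more. Below that it was 10.6% at 2 to 2.5-fold (15 of 142) and 71.4% under 2-fold (10 of 14). The width limit itself cut through similar regions. The members at the limit, of 2000 bp, lay near Epn2 (3.57-fold in the young list and 3.62-fold at 20 months) and at Syndig1l (3.76 and 3.12-fold), and the kept regions just past it, of 2001 bp, lay nearest to Pax3 (3.76 and 3.10-fold) and Pipox (3.12 and 3.19-fold).

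**Figure D1:**
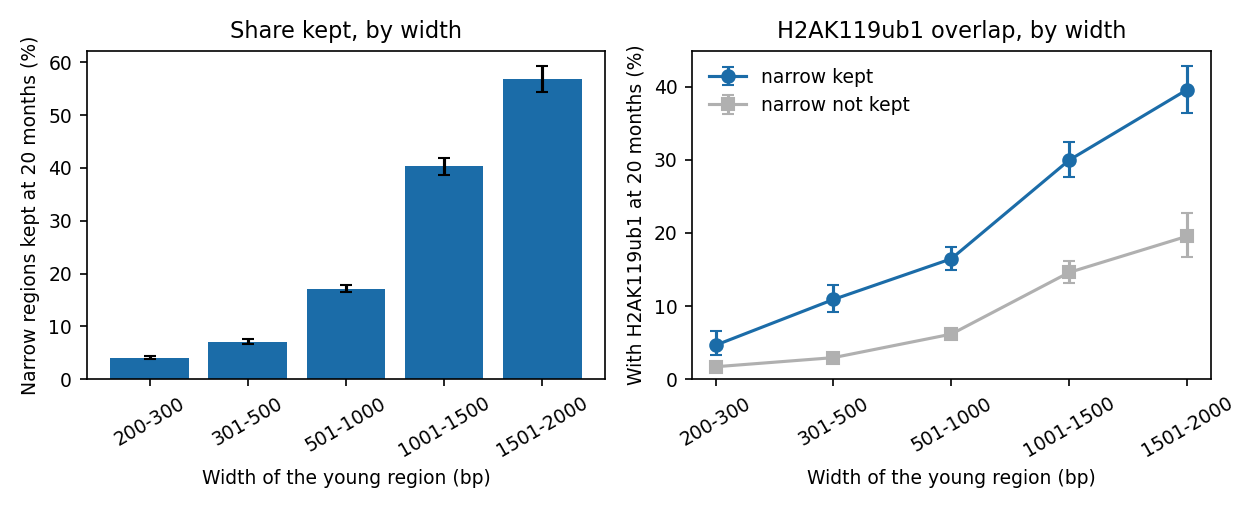
The left panel plots the share of narrow young H3K27me3 regions kept at 20 months (%, bars with 95% Wilson intervals) by width of the young region in bp, and shows it rising from 4.04% to 56.8%. The right panel plots the share that overlaps a 20-month H2AK119ub1 region (%, points with 95% Wilson intervals) for kept and lost narrow regions, and the kept regions lie above the lost ones in every width bin.

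The overlap that defined the members was usually partial. The 20-month regions covered a median of 39.6% of a member's length (quartiles 23.5 and 61.5%). Of the members, 308 lay wholly inside 20-month regions and 1669 (27.4%) overlapped 1 by at least 50% of both lengths. At the other end, 65 members overlapped by 10 bp or less, and 11 by a single base. Such small overlaps included a region near Tmem171 and a region of 1443 bp in an intron of Asic2. Conversely, 1186 of the lost regions lay within 200 bp of a 20-month region. Most members (5538, or 90.9%) met 1 20-month region, 538 met 2 and 17 met 3. Together the members met 6332 of the 15926 20-month regions (39.8%). The 20-month partner was narrower than the young region in 4683 members (76.9%), with a median width of 399 bp.

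Fold enrichment lay in the same range at both ages. The median was 3.29-fold in the young list (quartiles 3.06 and 3.55) and 3.15-fold for the strongest 20-month partner (quartiles 3.01 and 3.34). The median difference, 20-month minus young, was -0.110 (-0.126 to -0.0970), and the 20-month value was the higher one in 2384 members (39.1%). For wide kept regions the median difference was -0.266 (-0.283 to -0.249). The sign of the members' difference changed among the 1190 members left when both lists were held to −log10 q-values of 2 or more, where it was 0.0694 (0.0527 to 0.0883). The −log10 q-value, which measures the confidence of a call, had a median of 2.44 in the young list and 1.64 for the 20-month partners. These values come from the lists whose overlap chose the members and are given as a description.

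**Figure D2:**
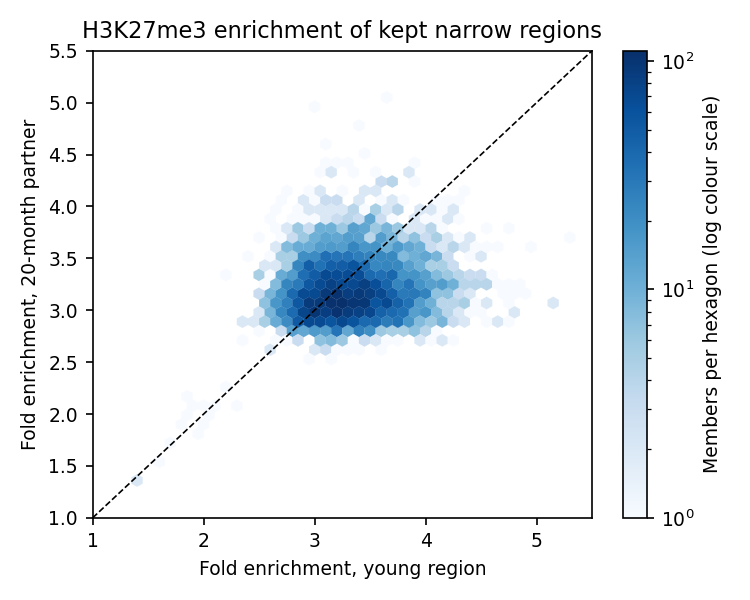
Fold enrichment over background of each member in the young list (x axis) is plotted against that of its strongest 20-month partner (y axis), with the number of members per hexagon on a log colour scale and equal values on the dashed line. Most members lie between 2.5 and 4-fold at both ages, and a few under 2-fold lie close to the line.

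Members were nearer to genes than the lost narrow regions. At a promoter, here a window of 1 kb around each protein-coding start site in both directions, lay 1291 of 6093 members (21.2%, 20.2 to 22.2), against 11.3% of all young regions on chromosomes 1 to 19, 7.52% of the lost narrow regions and 48.5% of the wide kept regions. The median distance to a start site was 9694 bp for members, 27149 bp for lost narrow regions and 1188 bp for wide kept regions. Distal sites, at least 10 kb away, held 3017 members (49.5%), against 68.6% of lost narrow and 30.1% of wide kept regions. The remaining 1785 members lay between. By annotation, 2302 members were intergenic (37.8%), 1850 lay in introns (30.4%) outside promoters, and 387 overlapped a coding exon or UTR outside promoters (6.35%). In the same order the shares were 46.9%, 38.6% and 4.33% of lost narrow regions, and 20.9%, 12.9% and 10.1% of wide kept ones. Read the other way, 29.1% of the narrow promoter regions were kept (27.8 to 30.5), 15.2% of those between and 9.51% of the distal ones (9.19 to 9.84).

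The difference in promoter share held within widths. Among regions of 501 to 1000 bp, 18.5% of members (16.9 to 20.3) and 9.82% of lost regions (9.25 to 10.4) were at promoters, and among those of 1501 to 2000 bp the shares were 38.1% (35.0 to 41.4) and 27.8% (24.5 to 31.3). Promoter members were wider than distal members (median 1083 against 717 bp) and had a higher CG ratio (0.352, 0.340 to 0.368, against 0.208, 0.203 to 0.211). Their median enrichment was 3.43-fold in the young list and 3.19-fold at 20 months, and that of distal members was 3.24 and 3.14-fold.

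Around start sites, members sat on the flanks. Their centres were most frequent at 1000 to 1500 bp downstream, with 276 members, and at 500 to 1000 bp upstream, with 263, and between these they dipped to 146 members from 0 to 500 bp downstream. Lost narrow regions showed no such dip, with 596 from 0 to 500 bp downstream, 563 from 1000 to 1500 bp and 604 at 500 to 1000 bp upstream. Only 352 of the 1291 promoter members (27.3%, 24.9 to 29.8) covered a start site, compared with 59.5% of the wide kept promoter regions (56.7 to 62.3) and 20.9% of the lost narrow ones (19.5 to 22.4). The share that covered a start site was 27.2% next to genes with H3K4me3 in the young list and 27.3% next to the others. Members were spread about evenly over both sides, 671 of 1291 (52.0%, 49.2 to 54.7) having their centre downstream.

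**Figure D3:**
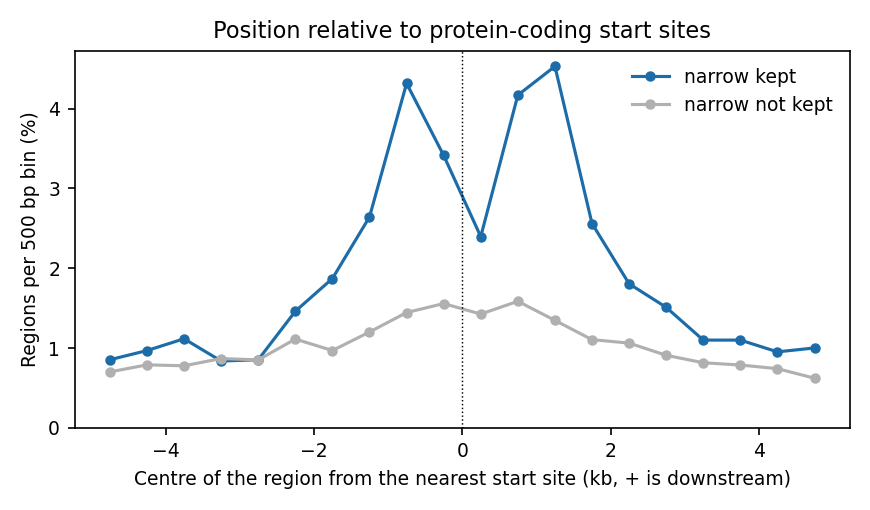
The share of regions (%) whose centre falls in each 500 bp bin is plotted against the distance to the nearest protein-coding start site in kb, with downstream positive, for kept and lost narrow regions. Members peak on both sides of the start site, at 4.32% and 4.53% per bin, and drop to 2.40% just downstream of it.

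H2AK119ub1, the mark of the other Polycomb complex, overlapped members more often than other narrow regions at both ages. In the young list 251 members (4.12%, 3.65 to 4.65) had it, against 2.54% of all young H3K27me3 regions and 0.665% of the lost narrow ones. At 20 months 1267 members had it (20.8%, 19.8 to 21.8), against 9.31% of all and 4.12% of the lost narrow ones. The H2AK119ub1 list itself was longer at 20 months, with 16796 regions on these chromosomes against 2535, and whether the higher share reflects this length was not tested. Wide kept regions carried it in 30.5% of cases in the young list and 68.1% at 20 months.

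Most of the marked members thus had H2AK119ub1 in the 20-month list alone. They numbered 1100, whereas 167 had it at both ages, 84 in the young list alone and 4742 at neither age. The 1100 were 81.4% of the members marked at either age (79.3 to 83.4), and the share was 85.3% in lost narrow regions (83.6 to 86.8) and 56.5% in wide kept ones (54.1 to 58.9). Those with the mark in the 20-month list alone were at promoters in 41.8% of cases, had a median width of 1132 bp and a CG ratio of 0.321 (0.308 to 0.334). The members with no H2AK119ub1 at either age were at promoters in 15.6%, had a median width of 709 bp and a ratio of 0.211 (0.208 to 0.216). Median H3K27me3 enrichment in the former was 3.45-fold in the young list (3.42 to 3.48) and 3.21-fold at 20 months (3.20 to 3.23), and in the latter 3.24-fold (3.23 to 3.26) and 3.14-fold (3.13 to 3.15). Within each width bin the members carried 20-month H2AK119ub1 more often than the lost regions, from 4.63% against 1.69% at 200 to 300 bp to 39.6% against 19.6% at 1501 to 2000 bp. The same order was seen at promoters (41.1%, 38.4 to 43.8, against 22.8%, 21.3 to 24.3) and at distal sites (12.1%, 10.95 to 13.3, against 1.69%, 1.54 to 1.84).

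The strongest promoter member with H2AK119ub1 at both ages was that of Slc11a2, an iron transporter (chr15:100424338-100425587, over the UTR and start of the gene, which also lies in an intron of Gm5475). Its H3K27me3 was 4.35-fold in the young list and 4.18-fold at 20 months. Next came Fam241b (3.70 and 3.79-fold), Kirrel3 (3.71 and 3.69-fold) and Adgrb1 (3.68 and 3.58-fold), whose centres are printed above. The others of the first 8 were Dpf1, a subunit of the neuronal BAF complex (3.69 and 3.58-fold), Htr1d, a serotonin receptor (3.65 and 3.55-fold), Hoxd13, a regulator of limb patterning (3.54 and 3.85-fold), and Mmp9, a secreted gelatinase (3.53 and 3.51-fold). High values at both ages follow from the order, which used the lower of them. The 20-month values belong to the overlapping regions, and 20-month regions covered from 13.2% (Mmp9) to 77.2% (Hoxd13) of the lengths of these 8 members.

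H3K4me3 was rare on members. It overlapped 131 in the young list (2.15%, 1.81 to 2.55), against 1.43% of all young H3K27me3 regions and 0.514% of the lost narrow ones. At 20 months it overlapped 59 (0.968%), against 0.723% of all and 0.263% of the lost narrow ones. The H3K4me3 list held 11279 peaks in young and 6686 in 20-month HSCs on these chromosomes, and the members' shares moved in the same direction as these lengths. Of the 131 members with H3K4me3 in the young list, 26 had it at 20 months too (19.8%, 13.9 to 27.5), close to 40 of 215 lost narrow regions (18.6%, 14.0 to 24.3) and below 113 of 351 wide kept ones (32.2%, 27.5 to 37.3). A further 33 members had it at 20 months alone. The strongest of the 26 at promoters were Npas3, a neuronal bHLH-PAS transcription factor (3.73-fold H3K27me3 in the young list and 3.25-fold at 20 months), Flrt2, a cell adhesion and guidance protein (3.48 and 3.23-fold), and Gm11549 (3.39 and 3.21-fold). Further down the order were Tiam2, Ankrd34a, Gata6, Adgrl3 and Tmcc3. Apart from Gm11549, these 8 also had H2AK119ub1 in the 20-month list, and none had it in the young list.

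The H3K4me3 and H2AK119ub1 lists met on the members at 20 months but hardly in young HSCs. Of the 131 members with H3K4me3 in the young list, 3 also had H2AK119ub1 (2.29%, 0.782 to 6.52), against 4.16% of members without H3K4me3. At 20 months 41 of 59 had both marks (69.5%, 56.9 to 79.7), against 20.3% of those without H3K4me3 (19.3 to 21.4). The contrast was smaller among promoter members alone. There 24 of 36 with H3K4me3 at 20 months had H2AK119ub1 (66.7%, 50.3 to 79.8), against 506 of 1255 without it (40.3%, 37.6 to 43.1). No member had both marks at both ages (0 of 6093, which by a limit of 3 counts allows a share of up to 0.0492%). Peaks themselves overlapped likewise: 1 of 140 young H3K4me3 peaks on members touched an H2AK119ub1 region, and 28 of 61 did at 20 months (45.9%, 34.0 to 58.3). Over all H3K4me3 peaks of these chromosomes the shares were 0.115% and 5.92%. Lost narrow regions showed the same contrast, with 4 of 215 and 45 of 110 (40.9%, 32.2 to 50.3). The difference in length between the H2AK119ub1 lists was not corrected for.

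**Figure D4:**
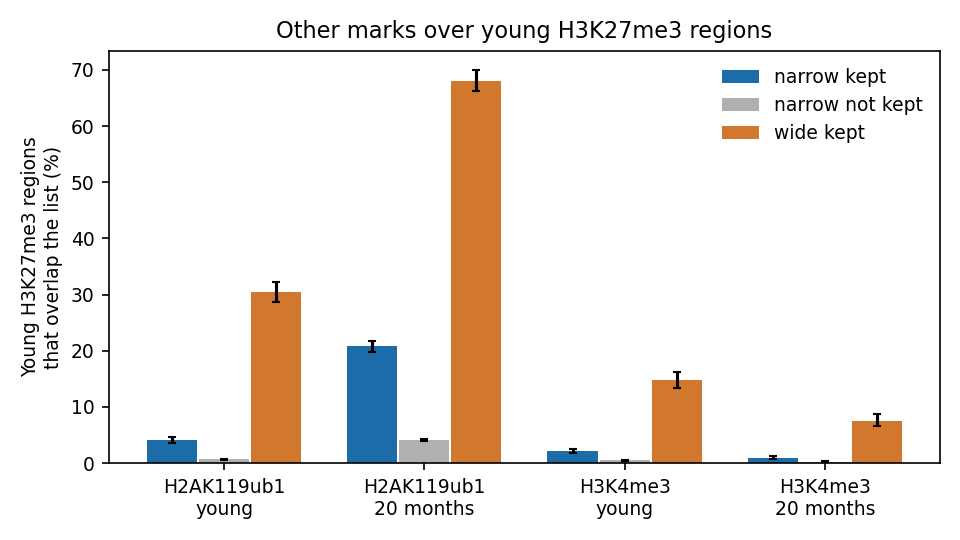
The share of young H3K27me3 regions that overlap H2AK119ub1 or H3K4me3 (%, bars with 95% Wilson intervals) is plotted for each list, in the groups narrow kept (members), narrow not kept and wide kept. Members lie between the lost narrow and the wide kept regions in all 4 lists, the highest value for members being 20.8% for H2AK119ub1 at 20 months.

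Members were found at the promoters of 1074 genes, or 5.19% of the 20698 protein-coding genes on these chromosomes. Wide kept regions were at 1022 genes, and 837 genes had a kept narrow region and no wide one. In the young list 18.8% of the 1074 genes had H3K4me3 at a promoter, and 10.6% had it at 20 months, whereas 35.8% and 24.8% of all protein-coding genes did. The genes with a lost narrow region at a promoter had nearly the same shares as those of the members, 18.6% and 11.2%. H2AK119ub1 was at 11.7% of the members' genes in the young list and 58.1% at 20 months, at 8.17% and 44.0% of the genes with a lost narrow region, and at 2.21% and 15.1% of all genes. The gene lists that follow were put together with results of these data known, and a gene may have regions of several kinds.

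Ion channels and neurotransmitter receptors, which set the excitability of neurons, had the largest shares of genes with a member among the lists of over 5 genes. Of 92 potassium channel genes, 35 had one (38.0%), and 24 had a wide kept region (26.1%). The strongest were Kcnv1 (4.28-fold in the young list and 3.62-fold at 20 months), Kcnc1 (3.70 and 3.54-fold), Kcnq3 (3.86 and 3.51-fold) and Kcnh1 (3.48 and 3.39-fold). Of 39 glutamate and GABA receptor genes, 14 had a member (35.9%) and 4 a wide kept region. Grm2, a metabotropic glutamate receptor, was at 4.36 and 3.56-fold and its member was covered completely by the 20-month region. Grik4, a kainate receptor subunit, was at 4.05 and 3.38-fold, Gabra2, a GABA receptor subunit, at 3.36 and 3.44-fold, and Grin3a, an NMDA receptor subunit, at 3.87 and 3.36-fold. Taken as 1 list, 49 of these 131 genes had a member (37.4%, 29.6 to 45.9) and 28 a wide kept region (21.4%, 15.2 to 29.2). Lost narrow regions were at 57 of them (43.5%, 35.3 to 52.1), so that narrow regions of both kinds were frequent at these genes.

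Developmental transcription factors showed the opposite order. Of 195 genes of the Hox, LIM homeobox, PAX, SOX, forkhead, T-box, NKX and related homeobox, tissue bHLH and GATA families, 27 had a member (13.8%, 9.69 to 19.4) and 115 a wide kept region (59.0%, 52.0 to 65.6), while 38 had a lost narrow region (19.5%, 14.5 to 25.6). All 12 LIM homeobox genes had a wide kept region and 4 a member as well. In the Hox family 24 of 39 had a wide kept region and 4 a member, which were Hoxd13, Hoxc4, Hoxd4 and Hoxa10. The member of Hoxc4 covers its start site (3.83 and 3.26-fold), and that of Hoxa10 lies in an intron (3.07 and 3.73-fold). Tbx1, a regulator of pharyngeal development, had the strongest promoter member of these families, with 4.75-fold in the young list and 3.79-fold at 20 months (chr16:18587281-18588372). Pax2, Sox11, Neurog3 and Neurod2, regulators of kidney, neural and endocrine development, had members of 3.39 to 4.42-fold in the young list. The Neurog3 member also overlaps Fam241b, and its strongest 20-month region is that of the Fam241b member whose centre is printed above. Among 27 genes with a member, 23 had H2AK119ub1 at a promoter at 20 months and 11 in the young list.

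Signalling genes were in between. Of 60 WNT, Frizzled, TGF-beta and BMP ligand genes, 15 had a member (25.0%, 15.8 to 37.2) and 16 a wide kept region (26.7%, 17.1 to 39.0). A lost narrow region was at 20 of them (33.3%, 22.7 to 45.9). Examples were Fzd10 (3.57 and 3.33-fold), Wnt5a (3.63 and 3.26-fold), Bmp7 (3.87 and 3.58-fold) and Bmp3 (4.19 and 3.36-fold), the last covered completely by its 20-month region. Collagens had a member in 7 of 42 genes (16.7%), with Col8a2 and Col2a1 among them, and a lost narrow region in 16. Cadherins and protocadherins had a member in 11 of 89 (12.4%), with Cdh2 and Cdh13 among them, and a lost narrow region in 23. Over all protein-coding genes, 5.19% had a member and 10.7% a lost narrow region.

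Genes of blood cells were near the share over all genes. Of 33 blood transcription factor genes, 2 had a member (6.06%, against the 5.19% of all protein-coding genes), and these were Runx3 (3.23 and 3.53-fold, in an intron), which acts in T and NK cells, and Bcl11b (2.97 and 3.17-fold, over the UTR), a T cell factor. The Runx3 member had H2AK119ub1 at both ages and that of Bcl11b at 20 months. T-bet (Tbx21), a factor of T helper cells, had a member of 3.45 and 3.30-fold. Among 127 interleukin, chemokine and receptor genes, 5 had a member (3.94%), of which Cxcl14, Il17rd, Ccr10 and Il11 ranked highest. No member was found at the promoters of 77 ribosomal protein genes, nor at those of 15 HSC marker and 7 CDK inhibitor genes, lists too short to tell 0 from the 5.19% of all genes. Of 1410 olfactory and vomeronasal receptor genes, 5 had one (0.355%).

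**Figure D5:**
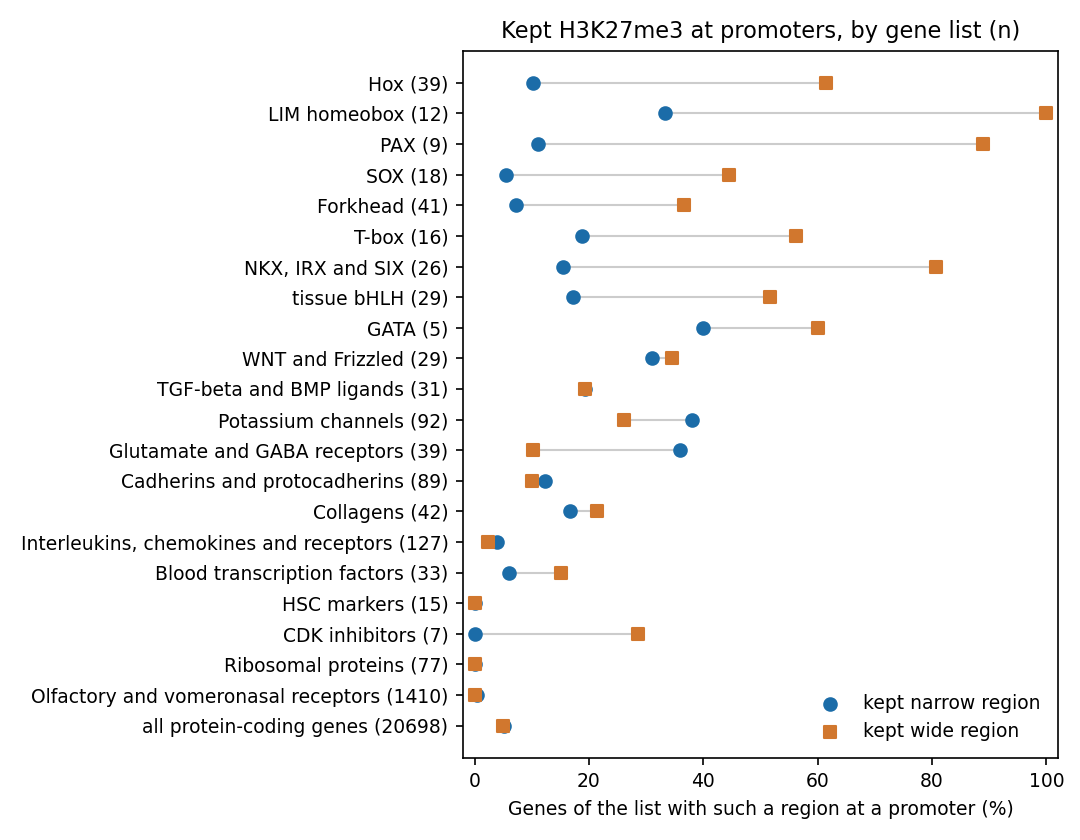
The share of genes of each list (%) with a kept narrow region (circles) or a kept wide region (squares) within 1 kb of a start site is plotted on the x axis, with the number of genes in brackets. Circles lie to the right of squares for potassium channels and for glutamate and GABA receptors, and squares lie to the right for every family of developmental transcription factors. By less, circles also lie to the right for cadherins and protocadherins (12.4% against 10.1%), interleukins, chemokines and receptors (3.94% against 2.36%) and olfactory and vomeronasal receptors. Over all protein-coding genes the shares are 5.19% and 4.94%.

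Ranked by the lower of their enrichments at both ages, the strongest promoter members after Slc11a2 were at Crmp1, a semaphorin signalling protein of neurons (chr5:37240861-37241915, 4.20 and 4.11-fold), Ephx4, of the epoxide hydrolase family (chr5:107402491-107403406, 4.09 and 4.10-fold), and Syt10, a synaptotagmin (chr15:89842124-89842945, 3.98 and 3.99-fold). Lad1, a protein of basement membranes (4.04 and 3.94-fold), Amotl1, a regulator of cell junctions (4.20 and 3.86-fold), Gm10837 (3.87 and 3.84-fold) and Lrrc26, an accessory subunit of potassium channels (4.01 and 3.83-fold), completed the first 8. The Ephx4 member also had H3K4me3 in the young list and H2AK119ub1 at 20 months. The strongest distal members lay in introns of Crtac1 (4.21 and 3.97-fold) and Myo18b (4.12 and 3.93-fold), near Fcgr1 (4.26 and 3.94-fold), within the tract over Lifr and Egflam described next (3.93 and 3.99-fold, over a coding exon and UTR of Egflam), and in intergenic DNA near Hmx1 (3.93 and 3.90-fold) and Abt1 (3.88 and 4.39-fold). At these distal sites only the members near Crtac1 and Abt1 had H2AK119ub1, in both cases at 20 months.

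Members often lay near each other. Another member lay within 5 kb of 3448 of them (56.6%, 55.3 to 57.8), and a member within 5 kb of 24.2% of the lost narrow regions (23.8 to 24.7). Any other young H3K27me3 region lay that near to 95.7% of members and 82.2% of lost narrow regions. Of the members, 651 shared a 20-month region with another member, so that the same 20-month call kept neighbours together. For members there was also a wide kept region within 5 kb of 1933 (31.7%, 30.6 to 32.9), compared with 11.1% for the lost narrow regions (10.8 to 11.4). Those near a wide kept region had H2AK119ub1 at 20 months in 25.8% of cases (23.9 to 27.8) and the others in 18.5% (17.3 to 19.7). Promoters held 16.0% of the former and 23.6% of the latter. When members less than 20 kb apart were joined, 2997 groups resulted, of which 1684 were single members and 219 held 5 or more, with 1692 members between them. The largest held 47 members over 201970 bp at Lifr, the receptor of leukemia inhibitory factor, and Egflam, a matrix protein gene (chr15:7105197-7307166). It also contained 14 wide kept regions, and 9 of its members had H2AK119ub1 at 20 months. Next were groups of 27 at Epn2, an endocytic adaptor, of 22 in a gene-free part of chromosome 1 and of 22 over keratin genes from Krt26 to Krt20, the last 2 without H2AK119ub1 at 20 months on any member. A further group of 22 lay at Tead1, the DNA-binding partner of YAP, and Rassf10.

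Members occurred on all 19 chromosomes. The kept share of narrow regions ranged from 9.06% on chromosome 9 to 16.4% on chromosome 15, with a median of 12.9%. Their density ranged from 1.04 per Mb on chromosome 16 to 4.32 per Mb on chromosome 11.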

How the data were processed

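The submitters' processing notes name Bowtie2, MACS2 2.2.6 and mouse build mm10. The methods describe alignment of single reads, but how the peak caller was run for ChIP-seq is not given in the sources used here. The deposited lists follow the MACS layout, broad regions for H3K27me3 and H2AK119ub1 and narrow peaks for H3K4me3. They give, as the authors' caller wrote them, a score, fold enrichment as a linear ratio, and the −log10 of the p-value and of the q-value, averaged over a region in broad lists. The score, the −log10 q-value times 10, was not used. Peak names of the broad lists carry 1 library number and those of the H3K4me3 lists 2, so whether the broad lists hold both replicates is unsure. Depth is unknown, since no read counts are in these lists, and no interval covers sequencing error.

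Overlaps came from Python (3.11.15), numpy (2.4.6), scipy (1.17.1) and pandas (2.3.3), were tested on simulated data, and the count of members was checked with bedtools 2.31.1 (6093). Figures were drawn with matplotlib 3.10.9. Positions were compared with the 52092 start sites of protein-coding transcripts on chromosomes 1 to 19 in GENCODE M21, and base content was read from GRCm38, of which mm10 is another name. The CG ratio is observed over expected CG in a region. Members were ranked by the lower of the young fold and the highest fold of the overlapping 20-month regions. Named are the first 8 at promoters and first 6 distal, the first 8 promoter members with H2AK119ub1 and with H3K4me3 at both ages, up to 4 genes per list, and those at the limits of the rule. Some named items are not reported here. Sequences over a UTR were passed over for the next in rank. Some gene models, such as Gm20388, span several genes and were left out of the text. The members and the gene lists were chosen with earlier results of these data known. Alternatives are given at the end: a reciprocal overlap, a stricter q-value, a narrower width, joined regions, a shortened young list, and other promoter definitions.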

Additional observations from a re-analysis of the deposited data

Results flagged for a closer look

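Data outside the rule held the same kind of region. On chromosome X, 1226 of 12454 narrow young H3K27me3 regions overlapped a 20-month region (9.84%, 9.33 to 10.4). Their median width was 461 bp and their median enrichment in the young list 3.08-fold. H2AK119ub1 overlapped 79 of them at 20 months (6.44%, 5.20 to 7.96) and 5 in the young list.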

How the results depend on the processing

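No paired analysis was possible because the lists are pooled over libraries, with no replicate columns, and for the same reason no replicate could be left out. The values moved beyond their intervals under most alternatives, and the cause was not tested. With an overlap of at least 50% of both regions, 3.48% of narrow regions were kept and 20.1% of the kept regions were at promoters, while the shares with other marks, the CG ratio and the fold difference stayed within their intervals. When both lists were held to −log10 q-values of 2 or more, 5.29% were kept, 25.9% were at promoters, 7.23% and 31.3% had H2AK119ub1 in young and 20-month HSCs, 3.53% and 1.43% had H3K4me3, the CG ratio was 0.245 and the fold difference reversed to 0.0694. With a width limit of 1000 bp these values were, in the same order, 8.82%, 15.0%, 2.12% and 12.9%, 0.927% and 0.424%, 0.208 and -0.0406. With regions within 1 kb joined, 6.49% were kept, 15.6% were at promoters, 2.60% and 14.3% had H2AK119ub1, 0.682% had H3K4me3 at 20 months, the CG ratio was 0.222 and the fold difference -0.0306. With the young list cut to the 15926 regions of highest −log10 p-value, 23.9% were kept, 28.3% were at promoters, 6.37% and 28.5% had H2AK119ub1, 3.26% and 1.52% had H3K4me3, the CG ratio was 0.248 and the fold difference -0.363. Promoters of 2 kb held 28.5% of the members, and start sites of all annotated transcripts 27.5%. Under every alternative run for these marks, H2AK119ub1 was at more members in the 20-month list than in the young list, and H3K4me3 at fewer. No alternative changed the H2AK119ub1 or H3K4me3 lists, whose lengths differed between ages in the same directions, so none could test these differences.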

Other observations

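A few members had very low enrichment. Of 14 narrow young regions under 2-fold, 10 were kept (71.4%, 45.4 to 88.3), the highest share of any enrichment class. These regions were chosen for mention after their values were seen. The lowest were in coding sequence of Gm21738 (1.38-fold in the young list and 1.39-fold at 20 months, 75.3% of bases repeat-masked) and of Gm10800 (1.39 and 1.36-fold, 83.9% repeat-masked). An intergenic region nearest to Ly6c2 was repeat-masked over its whole length, at 1.59 and 1.58-fold. A region over the ribosomal RNA gene CT010467.1 on chromosome 17 was at 2.00 and 1.94-fold, with 5.05% of bases repeat-masked. Among all members, 20 of 6093 were repeat-masked over more than 90% of their bases (0.328%), against 178 of 41808 lost narrow regions (0.426%).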
